A study of Neurospora crassa with 12 samples.

Results

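Far intergenic transcripts are the transcripts that the pooled RNA-seq assembly of Neurospora crassa placed well away from any known gene. They were selected by position: a transcript without the identifier of an annotated gene, on chromosomes I to VII, that overlapped no annotated transcript span on either strand and lay 2000 bp or more from the nearest one on either side. This gave 388 far intergenic transcripts, out of 21475 transcripts in the merged annotation and out of 2775 intergenic transcripts on the same chromosomes (14.0%). The other 2387 intergenic transcripts lay nearer than 2000 bp and are called nearer intergenic transcripts. Both strands contributed, with 198 far transcripts on the plus strand and 190 on the minus strand.

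RNA-seq was performed on mycelia of 3 strains: Δset-1, which lacks the histone H3K4 methyltransferase KMT2, Δdim-5, which lacks the histone H3K9 methyltransferase KMT1, and WT. Each strain was harvested at LP30, after 30 min of light at the end of the dark period, and at DD24, after 24 h of constant darkness. The 6 groups had 2 replicates each, and the 12 libraries were merged by the authors into 1 annotation of transcript positions, strands and exons, with no expression value. Read depth per transcript is therefore not known from this annotation. From it alone, no transcript can be assigned to a strain, a light condition or a replicate. Neither light nor either deletion could be tested with it. The study separately reports changes of expression and of H3K9me3 by strain and light, and these were not used here. Shares below carry exact (Clopper-Pearson) 95% intervals that cover counting error only, and no test was run between transcript classes, because transcripts of 1 annotation are not replicates.

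The Neurospora genome is compact, and most of its genes lie close to a neighbour. Its long gene-free stretches are known to be rich in relics of transposons that were mutated by repeat-induced point mutation (RIP), a premeiotic process that turns repeated DNA A:T-rich. Such relics carry H3K9 methylation made by DIM-5 and DNA methylation made by DIM-2, and the centromeres lie in such DNA. Long intergenic noncoding RNAs (lincRNAs) are transcripts between genes with no known protein product. Coding potential and base composition were not examined here, so the far transcripts are not divided into coding and noncoding or into RIP-mutated and other DNA.

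Far transcripts were most frequent in gaps of intermediate length and rare in the longest ones. A gap is a stretch of chromosome between annotated transcript spans, and the room of a gap is its length less 2000 bp at each annotated edge, the only place where a far transcript can lie. Gaps of 6 to 10 kb held 158 far transcripts, or 2.24 per 10 kb of room, and gaps of 10 to 20 kb held 160, or 1.36 per 10 kb. Gaps over 20 kb held 44 far transcripts, or 0.0951 per 10 kb, although their 4624 kb made up most of the 6780 kb of room. The 305 gaps of 4 to 6 kb held 26 far transcripts, or 0.960 per 10 kb, but their little room leaves no place for a long transcript. At least 1 far transcript lay in 46.2% (39.0 to 53.4) of the 195 gaps of 6 to 10 kb, in 44.3% (35.1 to 53.9) of the 115 gaps of 10 to 20 kb and in 23.0% (15.2 to 32.5) of the 100 gaps over 20 kb.

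Within the long gaps the density went on falling with length. The 76 gaps of 20 to 50 kb held 37 far transcripts (0.189 per 10 kb of room), the 15 gaps of 50 to 100 kb held 4 (0.0463 per 10 kb) and the 9 gaps over 100 kb held 3 (0.0166 per 10 kb). Far transcripts covered 17.3% of the room in gaps of 6 to 10 kb and 0.810% of the room in gaps over 20 kb. The same order held on each of the 7 chromosomes: density in gaps over 20 kb was between 0.0174 per 10 kb on chromosome III and 0.167 per 10 kb on chromosome VI, against 0.849 per 10 kb on chromosome VII to 2.06 per 10 kb on chromosome I in gaps up to 20 kb.

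**Figure D1:**
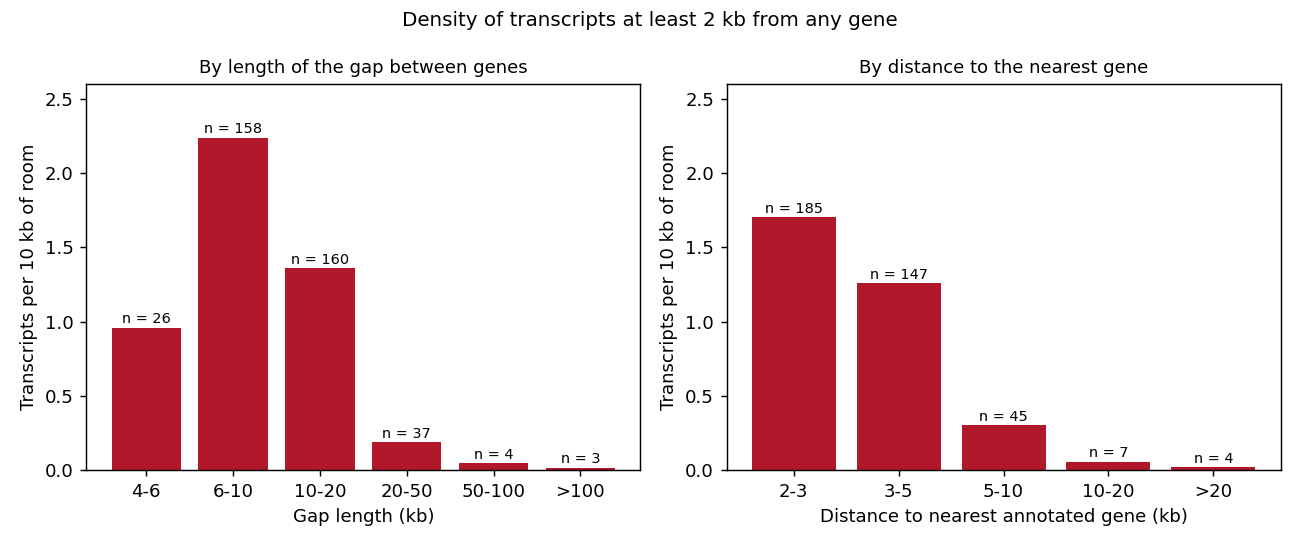
Far intergenic transcripts per 10 kb of room, by length of the gap between genes in kb (left) and by distance to the nearest annotated gene in kb (right), with the number of transcripts above each bar. On the right each transcript is counted at its end nearest a gene. Density was 2.24 per 10 kb in gaps of 6 to 10 kb and 0.0166 per 10 kb in gaps over 100 kb, and 1.70 per 10 kb at 2 to 3 kb from a gene and 0.0217 per 10 kb beyond 20 kb.

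Distance to the nearest gene, which chose the transcripts and is given only as a description, had a median of 3087 bp (quartiles 2430 and 4140 bp). Of the 388 far transcripts, 185 lay within 3 kb of a gene, 332 lay within 5 kb, 11 lay more than 10 kb away and 4 lay more than 20 kb away. Per 10 kb of room the density was 1.70 at 2 to 3 kb from a gene, 1.26 at 3 to 5 kb, 0.302 at 5 to 10 kb, 0.0587 at 10 to 20 kb and 0.0217 beyond 20 kb. Each transcript was counted only at its end nearest a gene, while room was counted base by base. Long transcripts that reached into a farther class thus add to the nearer class only. Even in gaps over 20 kb, 35 of the 44 far transcripts (79.5%, 64.7 to 90.2) lay under 10 kb from a gene. Just inside the limit were MSTRG.4043.2 at 2000 bp, MSTRG.11152.1 at 2001 bp and MSTRG.1398.3 at 2003 bp, and just outside it were MSTRG.10686.1 at 1998 bp, MSTRG.2813.1 at 1995 bp and MSTRG.2439.1 at 1992 bp.

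The 3 transcripts farthest from a gene each stood alone in a very long gap. MSTRG.8593.1 lay 118682 bp from the nearest gene (chromosome V, 1016632 to 1017556 of assembly NC12, minus strand) and had 1 exon of 925 nt. MSTRG.12595.1 lay 71721 bp away (chromosome VII, 2206835 to 2207252, plus strand), with 2 exons and 350 nt of exonic sequence. MSTRG.3679.1 lay 67553 bp away (chromosome II, 1298244 to 1298465, minus strand), with 1 exon of 222 nt. These 3 were the only far transcripts in the longest gap of any chromosome. Those 7 gaps summed to 1601 kb, and the longest gaps of chromosomes I, III, IV and VI, of 152.7, 151.5, 119.6 and 296.7 kb, held none. The next in distance were MSTRG.6663.1, 33809 bp from a gene in a gap of 93.8 kb on chromosome IV, with 1 exon of 329 nt, and MSTRG.9457.1, 14326 bp from a gene on chromosome V, with 1 exon of 253 nt.

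A small set of identical-length tRNA pseudogenes lay under 3 of the most remote transcripts. tRNA pseudogenes are defective copies of tRNA genes, and RefSeq lists 16 of them in Neurospora, 6 of which are 87 bp long. All 6 lay more than 10 kb from an annotated gene, the nearest at 12721 bp and the farthest at 119421 bp. MSTRG.8593.1 covered NCU15086 over all of its 87 bp, MSTRG.12595.1 covered 79 bp of NCU15311 and MSTRG.6664.1 covered 84 bp of NCU15148 on chromosome IV. MSTRG.12595.1 began within its pseudogene, and the last genomic base of MSTRG.6664.1 lay within its own. The other 87-bp pseudogenes, NCU15219 on chromosome III, NCU15085 on chromosome V and NCU15310 on chromosome VII, had no assembled transcript over them. Of the 2387 nearer intergenic transcripts 0 overlapped a tRNA pseudogene. The distance rule keeps nearer transcripts close to a gene, and the longest of them spanned 6461 bp. None could therefore reach an 87-bp pseudogene, the nearest of which lay at 12721 bp. The 0 is thus no comparison for the 87-bp pseudogenes and bears only on the other tRNA pseudogenes.

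**Figure D2:**
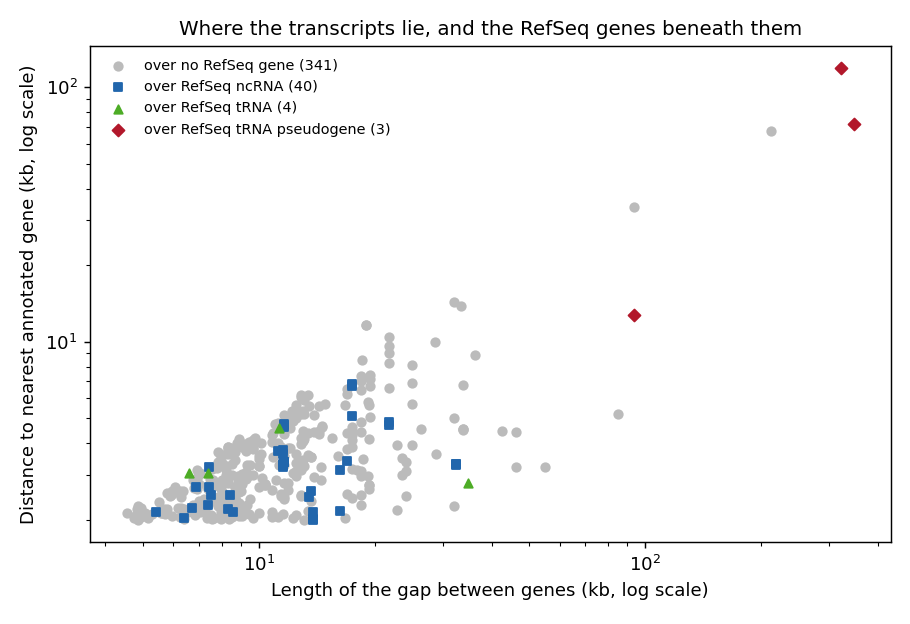
Each point is 1 of the 388 far transcripts, by length of its host gap (horizontal axis, kb, log scale) and distance to the nearest annotated gene (vertical axis, kb, log scale), with colour and shape for the kind of RefSeq gene it overlaps. The 3 transcripts over tRNA pseudogenes lie in gaps of 93.8, 321.2 and 347.8 kb, and the 40 over RefSeq ncRNAs all lie within 10 kb of a gene.

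As assembled, far transcripts were short and mostly unspliced. A single exon was found in 290 of 388 far transcripts (74.7%, 70.1 to 79.0), in 78.8% (77.1 to 80.4) of nearer intergenic transcripts and in 70.8% of antisense transcripts, which overlap an exon of a gene on the opposite strand, against 16.8% of annotated transcripts. The median exonic length was 686.5 nt (interval 573 to 770; quartiles 369 and 1492.5) for far transcripts, 614 nt (585 to 641) for nearer intergenic, 908 nt for antisense and 1986 nt for annotated transcripts. Much of the nearer class lies in gaps too short for a long transcript. Among the 926 nearer transcripts in gaps over 4 kb, the only gaps that can also hold far ones, the single-exon share was 70.4% (67.4 to 73.3) and the median length 959 nt (873 to 1035). The interval of the far median holds the median of all nearer transcripts and lies below that of nearer ones in gaps over 4 kb. In a gap of given length, the greatest possible distance from a gene is smaller for a longer transcript. The distance rule thus limits the length of far transcripts, and the values are a description only. The part of this limit in the length differences was not tested. With 1 far transcript per locus the far median was 572 nt (interval 526 to 700). This interval also holds the 614 nt of all nearer transcripts, which were not reduced to 1 per locus.

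**Figure D3:**
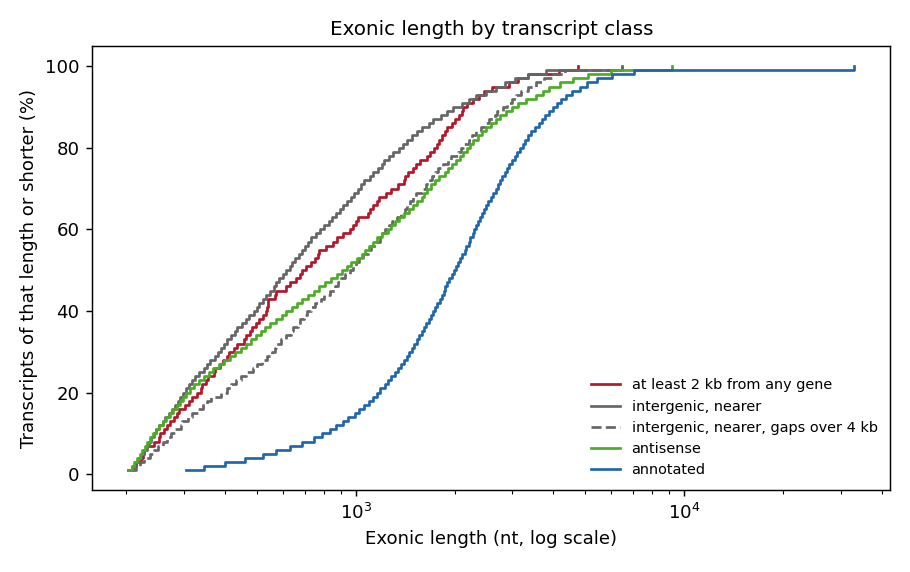
Cumulative share of transcripts (vertical axis, percent) by exonic length (horizontal axis, nt, log scale) for far, nearer intergenic, antisense and annotated transcripts, with nearer transcripts in gaps over 4 kb as a dashed line. The far transcripts (median 686.5 nt) run between all nearer transcripts (614 nt) and the nearer ones in gaps over 4 kb (959 nt), and all of these lie left of annotated transcripts (1986 nt).

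The structure of the far transcripts was also listed by distance to the nearest gene. The 185 transcripts at 2 to 3 kb from a gene had a single-exon share of 73.0% (66.0 to 79.2) and a median length of 713 nt, and the 147 at 3 to 5 kb had 72.1% (64.1 to 79.2) and 721 nt. The 56 at 5 kb or more had 87.5% (75.9 to 94.8) and 531.5 nt. Of the 11 at 10 kb or more, 10 had a single exon and the longest had 925 nt. Counted as 1 transcript per locus, the longest, a single exon was found in 49 of 55 loci at 5 kb or more (89.1%) and in 241 of 290 loci under 5 kb (83.1%), with medians of 526 and 611 nt. Taking the longest removed only spliced transcripts, so these shares had to rise. The intervals of the classes overlap. A longer transcript in a gap of given length also has a smaller greatest possible distance from a gene. The distances are those that chose the transcripts, so these values are a description only.

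Where far transcripts were spliced, their introns were of the size usual in this fungus. Of the 98 spliced transcripts, 72 had 2 exons, 20 had 3, 5 had 4 and 1 had 5. Their 118 different introns had a median of 74.5 bp (quartiles 62 and 122.5), against 87 bp (66 and 140) for 587 introns of nearer intergenic transcripts and 76 bp (62 and 117) for 17854 introns of annotated transcripts. The spliced far transcripts were also longer, with a median of 1346.5 nt against 532.5 nt for those of 1 exon. MSTRG.2776.2 had the most exons, 5 with 2428 nt in all (chromosome I, 8185066 to 8188251, plus strand), between NCU00509 and pkr1. It belonged to an assembly gene of 4 far transcripts, MSTRG.2776.1 to MSTRG.2776.4, with 3, 5, 3 and 4 exons and 2428 to 3354 nt. MSTRG.2776.1, MSTRG.2776.2 and MSTRG.2776.4 had the first exon end at 8185404 and the second exon start at 8185474, an intron shared by 3 of the 4.

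Several far transcripts were as long as genes. MSTRG.4617.1 on chromosome II (4121372 to 4126121, minus strand) was the longest, with 1 exon of 4750 nt, and its isoforms MSTRG.4617.2 and MSTRG.4617.3 had 4679 nt in 2 exons and 4087 nt in 3 exons. They lay in a gap of 32.4 kb between NCU08445 and NCU09335, 3294 bp from NCU09335 at the nearest. MSTRG.11205.1 on chromosome VI had 4281 nt in 3 exons, with introns of 76 and 571 bp, the last the longest of all far introns. MSTRG.6161.1 on chromosome III had 4147 nt in 2 exons. In all, 13.1% of far transcripts reached 2000 nt, compared with 9.89% of nearer ones and 21.3% of nearer ones in gaps over 4 kb. These shares are a description only, because the distance rule limits how long a far transcript in a given gap can be.

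The 388 far transcripts came from 348 assembly genes and formed 345 loci of transcripts overlapping on the same strand, so that most loci (315) held 1 far transcript. They lay in 190 of the 677 gaps with 200 bp or more of room, and 88 of these gaps held 2 or more. The richest gaps were picked after their values were seen. A gap of 17.4 kb on chromosome V between NCU04177 and NCU04179 held 10 far transcripts, and a gap of 12.5 kb on chromosome II between NCU01835 and NCU01834 held 9. Of the 5 gaps with 7 each, 1 on chromosome IV lay between bdp-1 and cre-1, which encodes the carbon catabolite repressor, and 1 on chromosome I lay upstream of csp-1. Within 50 kb of the 14 chromosome ends lay 3 far transcripts, in 115 kb of room (0.261 per 10 kb, against 0.572 in all gaps). A density that rests on 3 transcripts is uncertain. The nearest to an end were MSTRG.8316.1 (416 nt) and MSTRG.8317.1 (339 nt) on chromosome V, 6890 and 6921 bp from the first base of the chromosome and overlapping on opposite strands.

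RefSeq already lists noncoding RNAs at some of these places, without a strand in the table used here. Of the 388 far transcripts, 40 (10.3%, 7.47 to 13.8) overlapped a RefSeq ncRNA gene, compared with 114 of 2387 nearer transcripts (4.78%, 3.96 to 5.71). Of nearer transcripts in gaps over 4 kb the share was 6.70% (5.17 to 8.50), an interval that overlaps that of far transcripts. With 1 far transcript per locus the far share was 8.41% (5.70 to 11.8). Of far transcripts 4 (1.03%, 0.282 to 2.62) overlapped a tRNA gene and 0 overlapped an rRNA gene (interval up to 0.946%). Among nearer transcripts these were 74 (3.10%) and 16 (0.670%). Among nearer ones in gaps over 4 kb they were 2.16% (1.32 to 3.32) and 0.648%. Just 22 of 399 tRNA genes and 4 of 77 rRNA genes lay 2000 bp or more from an annotated gene, which limits the far counts. Read from the other side, 30 of the 176 RefSeq ncRNAs on the chromosomes lay 2000 bp or more from an annotated gene, and 19 of these (63.3%, 43.9 to 80.1) had a far transcript over them. Another unannotated transcript brought the number to 27 of 30 (90.0%), near the 153 of all 176 ncRNAs (86.9%) with any unannotated transcript over them. A far transcript covered 7 of the 19 wholly and 10 of them over 90% of their length, and the transcripts over the rest were partial, down to 19 bp of NCU14120 by MSTRG.5914.1.

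Far transcripts over RefSeq ncRNAs included many spliced isoforms of a few loci. Of these 40, 17 (42.5%, 27.0 to 59.1) had a single exon and the median length was 1713.5 nt. The 341 over no RefSeq gene had a single-exon share of 78.3% (73.5 to 82.6) and a median of 643 nt. With 1 transcript per locus, the longest, a single exon was found in 17 of 29 loci over an ncRNA (58.6%) and in 267 of 309 over no RefSeq gene (86.4%), with medians of 1092 and 542 nt. Only spliced transcripts were removed by this step, so both shares had to rise. All 3 isoforms of MSTRG.4617, the longest far transcripts, covered the 997 bp of NCU14143 wholly. MSTRG.442.1, with 4 exons and 1835 nt, covered 1028 bp of the 1168 bp of NCU14006. Of the 19 ncRNAs, 6 (NCU14084, NCU14103, NCU14137, NCU14164, NCU14173 and NCU14175) had far transcripts on both strands.

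The loci with most far transcripts over 1 ncRNA were NCU14175 and NCU14103, with 6 each. NCU14175 (chromosome VI, 1670520 to 1671797) lay under the 5 transcripts of assembly gene MSTRG.11134 on the plus strand, which had 2 or 3 exons and 572 to 1987 nt. Its minus strand held MSTRG.11135.1, 1 exon of 302 nt that ran across an intron of 4 of the 5. In 3 of the 5 the exon after that intron started 317 bp from the first base of NCU14175. NCU14103 (chromosome IV, 5171111 to 5172065) lay under MSTRG.8066.1, MSTRG.8066.2 and MSTRG.8066.3 on the minus strand and MSTRG.8067.1, MSTRG.8067.2 and MSTRG.8067.3 on the plus strand. MSTRG.8066.2 had 4 exons, and the 2 strands shared no intron.

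**Figure D4:**
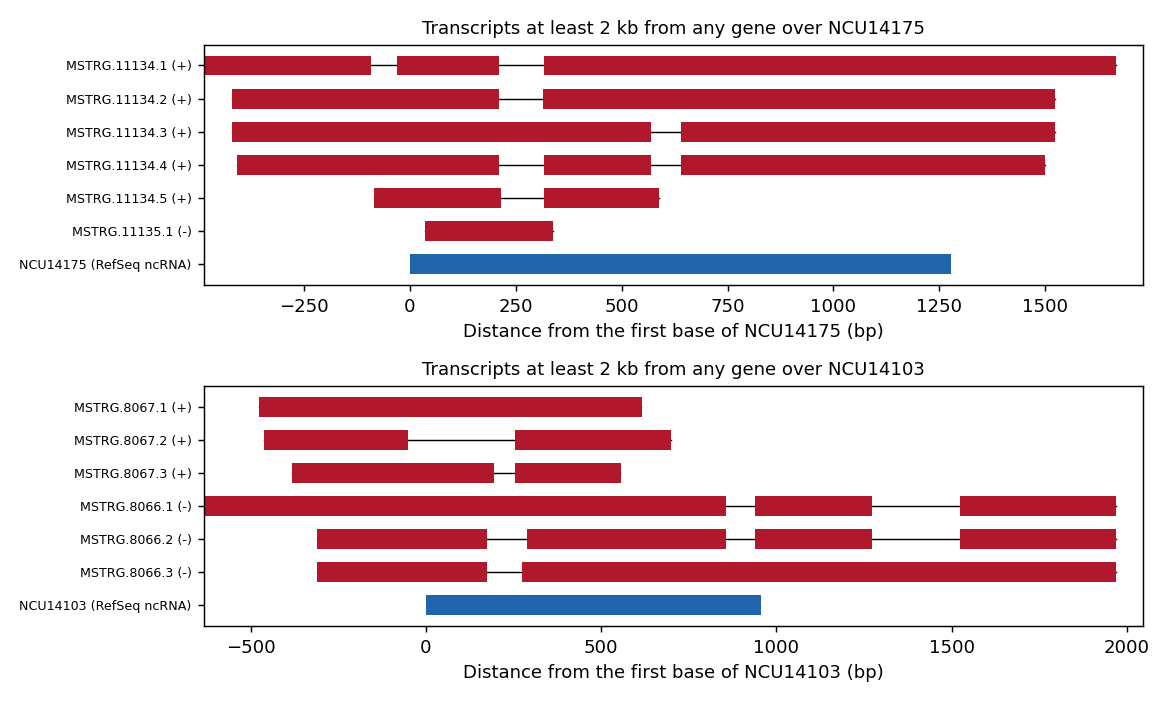
Exons (boxes) and introns (lines) of the far transcripts over RefSeq ncRNAs NCU14175 (top) and NCU14103 (bottom), by distance in bp from the first base of the ncRNA, with the strand in parentheses and the RefSeq gene in blue. At NCU14175 there are 5 transcripts on the plus strand and 1 on the minus strand, and at NCU14103 there are 3 on each strand.

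Overlap between far transcripts on opposite strands was common. There were 85 such pairs with 1 bp or more of shared exon, made up of 130 of the 388 far transcripts (33.5%, 28.8 to 38.4). Of the nearer transcripts, 22.1% (20.4 to 23.8) had such an overlap with another nearer transcript, and of the nearer ones in gaps over 4 kb 28.8%. With any intergenic transcript as the partner, the share was 42.0% (163) for far transcripts, 23.6% for nearer ones and 32.7% for nearer ones in gaps over 4 kb. The overlap had a median of 503 bp (quartiles 228 and 902, range 39 to 1951). In 36 pairs the transcripts overlapped at their 3′ ends, in 11 at their 5′ ends, and in 38 one lay inside the other. Of the 130 paired transcripts 67.7% (58.9 to 75.6) had a single exon and the median length was 1121.5 nt, against 78.3% (72.8 to 83.2) and 540.5 nt in the 258 unpaired ones. Single-exon transcripts have no splice site to fix their strand, so these shares rest on the strand that the file gives. The part of transcript length in these shares was not tested.

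The longest overlap joined MSTRG.10072.3 and MSTRG.10073.1 on chromosome V over 1951 bp, 91.9% of the shorter. MSTRG.10073.1 also overlapped MSTRG.10072.1 and MSTRG.10072.2 by 1772 and 1744 bp, so that these pairs share 1 transcript, and all lay in the gap with 10 far transcripts. MSTRG.8362.1 and MSTRG.8363.1, also on chromosome V, shared 1888 bp at their 3′ ends. MSTRG.4044.1 on chromosome II (1767 nt) lay wholly inside MSTRG.4043.2 (2988 nt) on the other strand, and both ran over the ncRNA NCU14137.

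Genes on either side of the host gaps numbered 366, or 3.76% (3.39 to 4.16) of the 9730 annotated genes. Tandem gaps, in which both genes point the same way, made up 97 of the 189 host gaps with a gene on each side (51.3%), divergent gaps 54 (28.6%) and convergent gaps 38 (20.1%), against 53.4%, 32.0% and 14.5% of the 674 such gaps with room. A far transcript lay in 38.8% (29.1 to 49.2) of convergent gaps, 26.9% (22.4 to 31.8) of tandem gaps and 25.0% (19.4 to 31.3) of divergent gaps. These intervals overlap. In tandem gaps 97 of the 218 far transcripts had the strand of the genes. Counted by the nearest gene, 96 far transcripts lay past the 5′ end of a gene on their own strand and 85 past its 3′ end, while 118 lay past the 5′ end of a gene on the other strand and 89 past its 3′ end. No assembled transcript overlapped 29 of the 366 flanking genes (7.92%) on their strand, compared with 824 of all 9730 genes (8.47%) and 116 of 904 genes (12.8%) beside gaps with room but no far transcript.

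Several light and clock genes stood beside the host gaps. Of 20 such genes 6 (30.0%, 11.9 to 54.3) flanked a gap with a far transcript, against 3.76% of all annotated genes. They were frq, the central clock gene, ck-1a, the casein kinase that phosphorylates FRQ, adv-1, csp-1 and sub-1, which encode transcription factors of the light response and clock output, and eas, a clock-controlled gene that encodes the hydrophobin of the conidial surface. Genes of this list also had gaps with room beside them more often, at 8 of the 20 (40.0%), against 1270 of the 9730 annotated genes (13.1%). Of genes with such room, 6 of 8 light and clock genes (75.0%, 34.9 to 96.8) and 366 of 1270 annotated genes (28.8%, 26.3 to 31.4) had a far transcript in it. The other genes of the list with room, ckb-1 and nop-1, had none. None of 5 carotenoid genes, 8 genes of H3K9 and DNA methylation, 3 genes of other methyltransferases and 8 genes of RNA interference flanked a host gap, but in these lists only al-3 and dmm-2 had a gap with room. A pair of listed methyltransferase partners, eed and suz12, could not be matched to a symbol and are not counted. Outside the lists, the gene set-3 (NCU01932) flanked a host gap and was picked after its values were seen. The lists are short and were chosen with earlier results of these data known, so the counts are a description. Flanking says nothing of which neighbour is closer: of the 20 far transcripts beside a listed gene, 10 lay nearer to it than to the gene on the other side.

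The gap of 7375 bp between NCU02267 and frq (NCU02265, chromosome VII, 3131640 to 3136464, plus strand), upstream of frq, held 5 far transcripts. Of these, 4 were on the strand opposite to frq. MSTRG.12824.1, MSTRG.12824.2 and MSTRG.12824.3 shared a locus 2936, 3418 and 3606 bp before the start of frq, with 1794 nt in 1 exon, 1234 nt in 2 exons and 999 nt in 2 exons. MSTRG.12823.1, with 329 nt, lay 5003 bp before the start. All 4 were nearer to NCU02267, at 2645, 2654 and 2669 bp for the MSTRG.12824 transcripts and 2043 bp for MSTRG.12823.1. The last, MSTRG.12825.1, had the strand of frq and 225 nt in 2 exons, 2400 bp before its start. Only 1 other intergenic transcript, MSTRG.12826.3 on the opposite strand, lay in the gap.

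The gap of 11.6 kb between csp-1 (NCU02713, chromosome I) and NCU02716, upstream of csp-1, held 7 far transcripts, 3 on the strand of csp-1 and 4 on the other. They lay 2407 to 7840 bp before its start and had 289 to 2627 nt in 1 exon each. MSTRG.1163.1, MSTRG.1164.1 and MSTRG.1165.1 were nearer to NCU02716, at 5153, 2457 and 3280 bp. MSTRG.1160.1, the longest, ran with the strand of csp-1, opposite MSTRG.1161.1, MSTRG.1162.1 and MSTRG.1163.1. Past the 5′ end of sub-1 on chromosome V, MSTRG.9307.1 and MSTRG.9307.2 (1773 and 1845 nt, both 4053 bp away) ran with its strand and MSTRG.9308.1 (973 nt, 3980 bp away) ran against it. They were nearer to NCU16980 on the other side of the gap, at 2686, 2686 and 3704 bp. MSTRG.9317.1 (2069 nt), 2828 bp past the 3′ end of sub-1, was the only far transcript beside a listed gene that did not lie past a 5′ end.

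**Figure D5:**
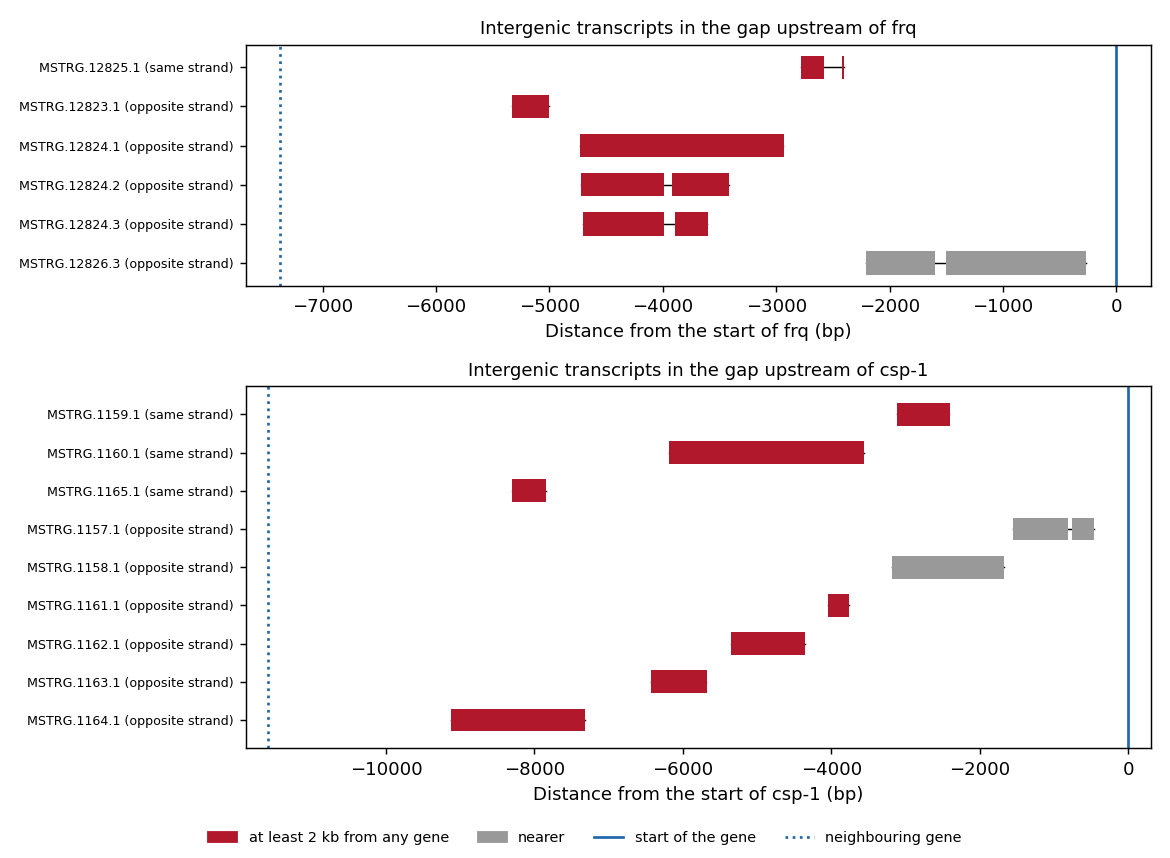
Exons (boxes) and introns (lines) of the intergenic transcripts in the gaps upstream of frq (top) and csp-1 (bottom), by distance in bp from the start of the gene, far transcripts in red and nearer ones in grey, with the strand relative to the gene. The gap of frq held 5 far transcripts, 4 of them on the opposite strand, and that of csp-1 held 7, 4 of them on the opposite strand.

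The remaining light and clock genes had 1 or 2 far transcripts each. MSTRG.2012.1 (1687 nt, opposite strand) and MSTRG.2013.1 (302 nt, same strand) lay 3033 and 3872 bp before the start of adv-1. MSTRG.2537.2 (1310 nt in 3 exons) lay 2414 bp before ck-1a and MSTRG.4479.2 (1413 nt in 2 exons) 2098 bp before eas, both on the opposite strand. Each of these last 2 overlapped a nearer transcript of its own assembly gene, MSTRG.2537.1 and MSTRG.4479.1, so that they were isoforms of transcripts that came closer to a gene. Across the class, 16 far transcripts overlapped a nearer unannotated transcript on the same strand in this way.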

How the data were processed

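The authors depleted ribosomal RNA, mapped the 100 bp paired reads of the 12 libraries to NC12 with HISAT2 version 2.1.0, assembled each library with StringTie version 1.3.3b at default settings and merged the assemblies with the NC12 annotation. The deposited file gives the first and last base, strand and exons of each transcript, counted from 1. Its score column holds in the authors' file only a constant or a dot and is no expression level. The study states among its results that it kept strand, although the labels list a kit version whose name shows no strand selection, and strands are used as deposited. Libraries are pooled, so replicates could not be compared.

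Distances are the bases between spans. Spans on the same strand that share 1 bp form a locus. RefSeq genes of NC12 gave symbols, kinds and chromosome names, and 9729 of 9730 annotated genes matched by locus tag, with the same start and end. The end of a chromosome was taken as the last base of any feature. Transcripts named in the text were the 5 farthest from a gene, the 5 longest, the 5 with most exons, the 5 nearest to an end, those in the longest gaps, the 3 just inside and outside the limit, those over RefSeq genes, the 3 assembly genes with most members, the 3 longest pairs and those beside listed genes, with examples given. The rich gaps and their transcripts were picked after their values were seen, and so were the comparison with nearer transcripts in gaps over 4 kb and the counts per locus by distance and over ncRNAs. The members and gene lists were chosen with earlier results of these data known. The code was tested on simulated data. Intervals are exact Clopper-Pearson intervals at 95%, and those of medians come from binomial order statistics. Python 3.11.15, numpy 2.4.6, scipy 1.17.1 and matplotlib 3.10.9 were used.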

Additional observations from a re-analysis of the deposited data

How the results depend on the processing

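The number of far transcripts followed the distance limit, with 845 at 1000 bp, 203 at 3000 bp and 56 at 5000 bp in place of 388 at 2000 bp, and 98 had 2 or more exons. It was 296 where RefSeq genes of any kind also counted as genes. At 5000 bp the single-exon share was 87.5% and the median length 531.5 nt. With 1 transcript per locus, the longest, these were 84.1% and 572 nt. The number with a single exon was 290 before and after this step. Only spliced transcripts were thus removed, and the share had to rise. A locus whose longest transcript is unspliced counts as single-exon even where it holds spliced isoforms. Density in gaps over 20 kb was 0.134 per 10 kb of room without the longest gap of each chromosome, against 0.0951 with them, and 0.0868 to 0.106 without each chromosome in turn. The share of far transcripts in pairs was 31.3% and that over RefSeq ncRNAs 8.41% with 1 transcript per locus. Requiring 50% of the shorter transcript left 112 of the 130 paired far transcripts. A minimum of 200 nt could remove none, because the shortest far, nearer and antisense transcripts each had 200 nt. The length distributions of these classes thus start at 200 nt.

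Base composition, splice sites and reading frames were not run, because they need a genome sequence that was not used here. No paired analysis was possible because the file pools all libraries and no result comes from a test, and for the same reason leaving out a replicate was not run. Depth per transcript is unknown, so a gap without a far transcript is not shown to be silent. Lengths and exon numbers are those of assembled models.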

Other observations

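Other known regulators beside host gaps were picked after their values were seen, and they are given as values only. The gap of 11.6 kb at the 3′ end of cre-1 held 7 far transcripts, the nearest 3360 bp away. They were the 3 isoforms of MSTRG.8066 and the 3 of MSTRG.8067 over the ncRNA NCU14103, and MSTRG.8065.4, which lay nearer to bdp-1, at 2792 bp. Past the 5′ end of vib-1, a transcription factor of heterokaryon incompatibility and nutrient use, a gap of 13.6 kb on chromosome V held 3 far transcripts, the nearest at 2589 bp. Of these, MSTRG.8974.1 and MSTRG.8976.1 overlapped on the same strand and formed a single locus. The gap of 9.67 kb past the 5′ end of col-26, a regulator of starch and glucose use, held 2, the nearest at 2036 bp. The other, MSTRG.8404.1, lay nearer to ccg-14, at 3841 bp. Past the 5′ end of gna-1, which encodes a G protein alpha subunit, a gap of 6.23 kb on chromosome III held 2, the nearest at 2053 bp. The pheromone receptor gene pre-1 had 2 far transcripts past its 3′ end in a gap of 14.5 kb, the nearest at 7853 bp. Both were isoforms of the same assembly gene, MSTRG.5546, and lay nearer to NCU00142 on the other side, at 4615 and 4655 bp.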
